A study of Mus musculus with 6 samples.

Results

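The interleukin 6 family signalling genes described here were 9 genes. They encode the ligands Il6 and Lif, the receptor chains Il6ra, Il6st, Lifr and Osmr, the kinase Jak1, the transcription factor Stat3 and the inhibitor Socs3. They were measured by the probe sets of an Affymetrix mouse array whose only gene symbol in the platform annotation was 1 of these 9, which gave 25 probe sets for 9 of 9 genes, out of 18193 genes named on the array. The samples were 6 pools of wild type mouse cumulus-oocyte complexes, each an oocyte with the specialised granulosa cells around it, with 1 array per pool and 2 arrays per group. All came from immature females given equine chorionic gonadotropin (eCG), which drives follicle growth, for 48 h. The 3 groups received no human chorionic gonadotropin (hCG), the hormone given to set off ovulation, or were collected 8 h or 16 h after it. By the labels' protocols, complexes of the first group came out of punctured ovaries and the others out of the oviduct. The hormone and the collection site therefore cannot be told apart. The labels give no mouse strain and do not say that the replicates came from different animals, so the p-values measure the spread between these samples, which may be technical.

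Cytokines of the interleukin 6 family bind receptor complexes at the cell surface that share the chain encoded by Il6st, also called gp130. Receptor binding activates JAK kinases, which phosphorylate STAT3, and STAT3 then enters the nucleus and raises its target genes, among them Socs3, whose protein blocks the same receptors. In the mouse ovary, cumulus and granulosa cells are known to make interleukin 6 around ovulation, and both interleukin 6 and LIF are known to promote expansion of the cumulus.

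At 8 h against no hCG, the transcripts of both ligands and of 2 receptor chains were higher, together with Stat3, while the inhibitor Socs3 was lower. By 16 h the receptor chain Osmr was higher still, and Il6, Il6st and Jak1 were lower than at 8 h, with the Il6st fall called on its brightest probe set only. With each gene represented by its brightest probe set, 5 of the 9 genes rose, 1 fell and 3 were not called at 8 h against no hCG. Among all 13559 genes tested, 16.9% rose and 20.5% fell in that comparison. Of the 9 genes, 1 rose, 3 fell and 5 were not called at 16 h against 8 h, beside 11.8% of all tested genes higher and 9.12% lower. The comparison of 16 h against no hCG had 4 that rose, 2 that fell and 3 not called, beside 20.8% higher and 20.8% lower. The median change of the 9 genes was 0.63 on the log2 scale at 8 h against no hCG, beside -0.02 for all tested genes. It was -0.52 at 16 h against 8 h, beside 0.01, and 0.15 at 16 h against no hCG, beside -0.02. Values are the deposited log2 intensities, changes are differences of log2 group means ± SE from a limma fit to all 6 arrays, and a gene was called at a Benjamini-Hochberg adjusted p under 0.05 over 27022 probe sets. Levels of different genes are not compared, since probe sets differ in brightness for the same amount of RNA. The 3 comparisons share arrays.

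**Figure D1:**
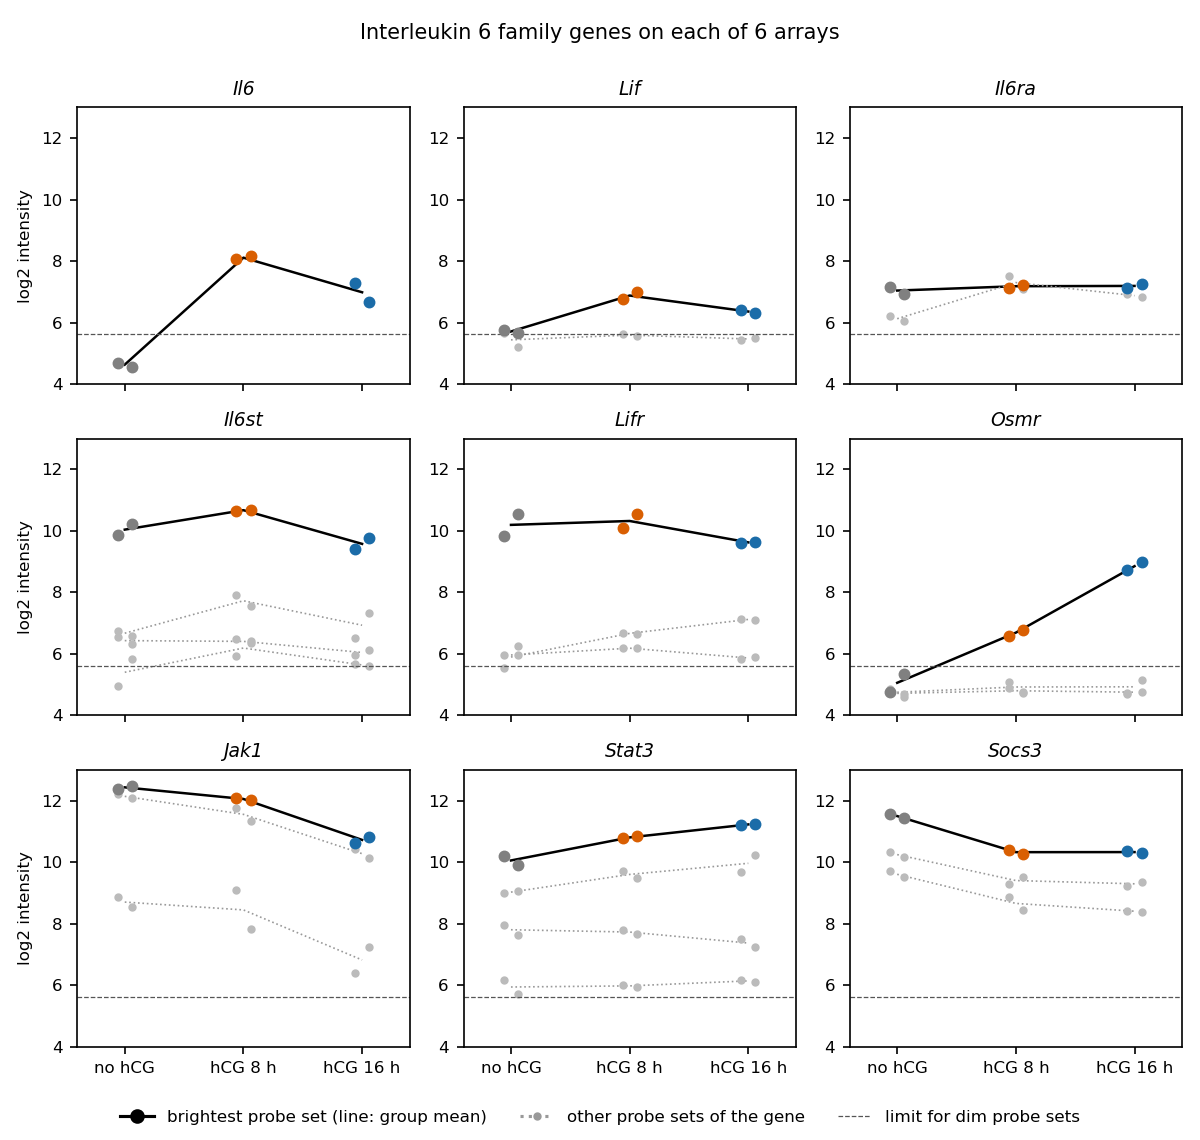
Log2 intensity (vertical axis) of the 25 probe sets of the 9 genes without hCG, 8 h after hCG and 16 h after hCG, with 1 point per array and n = 2 per group. Large coloured points are the brightest probe set of a gene and small grey points its others, lines join the group means, and the dashed line is the dim limit of 5.62. Il6 is highest at 8 h (8.05 and 8.17), Osmr is highest at 16 h (8.73 and 8.97), Jak1 is lowest at 16 h (10.62 and 10.83) and Socs3 is highest without hCG (11.55 and 11.45).

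Of the 25 probe sets, 22 were bright enough to test. The other 3 averaged under 5.62 log2 units, the 40th percentile of all probe sets, here called the dim limit. They were the second probe set of Lif and 2 of the 3 probe sets of Osmr. The arrays of a group correlated at r between 0.991 and 0.996 across probe sets and those of different groups at r between 0.943 and 0.979, as a description across probe sets that are not independent. Array medians spanned 0.125 on the log2 scale. At 16 h against 8 h, 4922 probe sets were called in the fit to 6 arrays. The number was 6340 in a fit without the no hCG group. It was lower than in the fit to 6 arrays when any 1 of the 8 h or 16 h arrays was left out. At 8 h against no hCG, 9167 were called, and the number fell most when either 8 h array was left out.

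The promoters of the 4 genes with a match to a searched motif are given as the sequence context of both ligands, of the kinase and of the inhibitor. Each is the 250 bases before a RefSeq transcription start in the mouse build GRCm38.p6, written 5′ to 3′ on the strand of the gene, with the motif match in capitals. The motifs searched on both strands were TTCNNNGAA for STAT factors, TGACGTCA for the cyclic AMP response element (CRE) and TGANTCA for AP-1. The Il6 region is chr5:30012864-30013113 on the plus strand, the Lif region chr11:4257318-4257567 on the plus strand, the Jak1 region chr4:101265224-101265473 on the minus strand and the Socs3 region chr11:117969367-117969616 on the minus strand.
Il6 promoter: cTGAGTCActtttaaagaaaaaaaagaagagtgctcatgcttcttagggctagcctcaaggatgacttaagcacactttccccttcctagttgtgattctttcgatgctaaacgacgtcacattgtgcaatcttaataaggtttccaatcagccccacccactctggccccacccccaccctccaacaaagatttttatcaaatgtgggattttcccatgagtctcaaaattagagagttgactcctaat
Lif promoter: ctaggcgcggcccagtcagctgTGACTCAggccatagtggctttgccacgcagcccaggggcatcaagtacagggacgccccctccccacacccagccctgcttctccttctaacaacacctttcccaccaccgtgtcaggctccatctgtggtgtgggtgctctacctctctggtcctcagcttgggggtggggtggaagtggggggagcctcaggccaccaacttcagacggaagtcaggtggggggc
Jak1 promoter: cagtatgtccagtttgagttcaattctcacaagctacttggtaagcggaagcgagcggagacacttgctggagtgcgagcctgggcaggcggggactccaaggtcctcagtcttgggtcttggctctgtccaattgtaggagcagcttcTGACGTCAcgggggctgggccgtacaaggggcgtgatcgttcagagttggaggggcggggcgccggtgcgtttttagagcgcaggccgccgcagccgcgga
Socs3 promoter: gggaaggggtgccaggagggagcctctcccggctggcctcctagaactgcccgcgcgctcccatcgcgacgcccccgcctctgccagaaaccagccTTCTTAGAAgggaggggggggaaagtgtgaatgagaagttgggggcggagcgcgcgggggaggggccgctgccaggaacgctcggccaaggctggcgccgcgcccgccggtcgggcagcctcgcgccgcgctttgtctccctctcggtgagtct

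The Il6 promoter held TGAGTCA, an AP-1 match 249 to 243 bases before the start, and the Lif promoter held TGACTCA, an AP-1 match 228 to 222 bases before it. The Jak1 promoter held TGACGTCA, a CRE match 101 to 94 bases before the start. The Socs3 promoter held TTCTTAGAA, a STAT match 154 to 146 bases before the start. All 9 genes had a promoter, and Lifr had 2, so 10 regions were searched, and the other 6 held no match to these motifs. Among 32851 mouse promoter regions of the same length, 7.02% held the STAT motif, 1.55% the CRE and 6.75% the AP-1 motif. Each of the 4 regions shown held 1 match, so none overlapped. A match is a description of the letters in the window and not a binding site.

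Il6, the founding cytokine of the family, was low without hCG and high at 8 h. Its probe set, 1450297_at, read 4.70 and 4.57 without hCG, 8.05 and 8.17 at 8 h and 7.29 and 6.68 at 16 h. The groups did not overlap, and the arrays without hCG lay under the dim limit of 5.62. Il6 rose by 3.48 ± 0.21 at 8 h against no hCG, an 11.1-fold difference (adjusted p = 2.45e-06). It fell by 1.12 ± 0.21 on the log2 scale at 16 h against 8 h, 2.18-fold (adjusted p = 0.00453), and the 16 h arrays were still above those without hCG by 2.35 ± 0.21, or 5.11-fold (adjusted p = 1.8e-05). With values under the dim limit set to that limit, the changes against no hCG were 2.49 at 8 h and 1.36 at 16 h, and both were still called.

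Lif, the leukaemia inhibitory factor, followed the same order of groups with a smaller range. It read 5.77 and 5.66 without hCG, 6.76 and 7.00 at 8 h and 6.42 and 6.30 at 16 h, with no overlap between groups. Lif rose by 1.17 ± 0.16 at 8 h against no hCG, or 2.25-fold (adjusted p = 0.000364). The 16 h arrays were above those without hCG by 0.65 ± 0.16 (adjusted p = 0.0101), a call lost without 16 h replicate 1 (change 0.59, adjusted p = 0.0703). The difference of 16 h from 8 h, -0.52 ± 0.16, was not called (adjusted p = 0.0508, 95% interval of the difference -0.88 to -0.16). It was called in a fit without the no hCG group (adjusted p = 0.0341). The other Lif probe set lay near or under the dim limit on every array, between 5.22 and 5.66, and was not tested.

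Il6ra encodes the chain that binds interleukin 6 itself, and its 2 probe sets differed. The brightest, 1422270_a_at, read 7.15 and 6.93 without hCG, 7.13 and 7.23 at 8 h and 7.13 and 7.26 at 16 h. Its groups overlapped in every comparison, and no comparison was called, with changes of 0.14 ± 0.16 at 8 h against no hCG (adjusted p = 0.566, 95% interval -0.21 to 0.50), 0.01 ± 0.16 at 16 h against 8 h (adjusted p = 0.98) and 0.15 ± 0.16 at 16 h against no hCG (adjusted p = 0.514). The other probe set, 1452416_at, read 6.20 and 6.05 without hCG, 7.52 and 7.08 at 8 h and 6.94 and 6.82 at 16 h. All arrays of both hCG times were above those without hCG for that probe set. It rose by 1.18 ± 0.18 at 8 h against no hCG (adjusted p = 0.000781) and by 0.75 ± 0.18 at 16 h against no hCG (adjusted p = 0.00915). The mean of the 2 probe sets was called in both comparisons against no hCG, with changes of 0.66 at 8 h (adjusted p = 0.00423) and 0.45 at 16 h (adjusted p = 0.0248). The level of Il6ra after hCG therefore depended on the probe set.

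Il6st, the shared chain, was highest at 8 h on its brightest probe set. Its brightest probe set, 1452843_at, read 9.85 and 10.23 without hCG, 10.66 and 10.69 at 8 h and 9.40 and 9.75 at 16 h, and the groups did not overlap. Il6st fell by 1.09 ± 0.19 on the log2 scale at 16 h against 8 h, or 2.14-fold (adjusted p = 0.00304). The rise of 0.63 ± 0.19 at 8 h against no hCG (adjusted p = 0.0265) was lost without no hCG replicate 1 (0.44, adjusted p = 0.124), without 8 h replicate 1 (0.65, adjusted p = 0.103) and without 8 h replicate 2 (0.62, adjusted p = 0.126). The 16 h arrays differed from those without hCG by -0.46 ± 0.19, which was not called (adjusted p = 0.0819) but was called without no hCG replicate 1 (-0.65, adjusted p = 0.0273). A second probe set, 1437303_at, rose by 1.06 ± 0.25 at 8 h against no hCG (adjusted p = 0.00943). Another changed by -0.02 in that comparison (adjusted p = 0.934), and the last by 0.79 ± 0.27 (adjusted p = 0.0502), neither called. At 16 h against 8 h none of these dimmer probe sets was called. The change there was -0.80 ± 0.25 for 1437303_at (adjusted p = 0.057), and the others had -0.36 ± 0.16 (adjusted p = 0.177) and -0.55 ± 0.27 (adjusted p = 0.22).

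Lifr, the chain that pairs with Il6st to bind LIF, had spread between replicates as large as its differences at 8 h. It read 9.84 and 10.56 without hCG, 10.10 and 10.55 at 8 h and 9.61 and 9.65 at 16 h, and both 16 h arrays were below the other 4. The change was 0.13 ± 0.24 at 8 h against no hCG (adjusted p = 0.754, 95% interval -0.42 to 0.67), and -0.70 ± 0.24 at 16 h against 8 h (adjusted p = 0.0808, 95% interval -1.24 to -0.15). Against no hCG at 16 h it was -0.57 ± 0.24 (adjusted p = 0.0975), and -0.93 without no hCG replicate 1 (adjusted p = 0.00609). The 16 h against 8 h difference was called in a fit without the no hCG group (adjusted p = 0.0145). A second, dimmer probe set went the other way at 16 h. It read 5.53 and 6.26 without hCG, 6.68 and 6.66 at 8 h and 7.14 and 7.10 at 16 h, and rose by 0.77 ± 0.22 at 8 h (adjusted p = 0.0236) and by 1.22 ± 0.22 at 16 h (adjusted p = 0.00185), both against no hCG. The last probe set, 1450207_at, was not called in any comparison. Its changes were 0.22 ± 0.15 at 8 h against no hCG, -0.32 ± 0.15 at 16 h against 8 h and -0.10 ± 0.15 at 16 h against no hCG.

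Osmr, the chain that pairs with Il6st to bind oncostatin M, was the 1 member that rose in all 3 comparisons. Its brightest probe set, 1418674_at, read 4.77 and 5.36 without hCG, 6.60 and 6.79 at 8 h and 8.73 and 8.97 at 16 h. The groups did not overlap, and both arrays without hCG were under the dim limit. Osmr rose by 1.63 ± 0.21 at 8 h against no hCG, or 3.1-fold (adjusted p = 0.000255), and by 2.16 ± 0.21 at 16 h against 8 h, or 4.47-fold (adjusted p = 0.000123). At 16 h it was above no hCG by 3.79 ± 0.21, or 13.8-fold (adjusted p = 1.12e-06). With values under the dim limit set to it, the changes against no hCG were 1.07 at 8 h and 3.23 at 16 h, and both were still called. The other 2 Osmr probe sets were too dim to test, with all values between 4.59 and 5.15.

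Jak1, a kinase bound to the receptor chains of the family, fell after 8 h on all 3 of its probe sets. The brightest, 1433805_at, read 12.38 and 12.49 without hCG, 12.10 and 12.01 at 8 h and 10.62 and 10.83 at 16 h, with no overlap between groups. Jak1 fell by 1.33 ± 0.16 on the log2 scale at 16 h against 8 h, or 2.51-fold (adjusted p = 0.000344), and was below no hCG at 16 h by a change of -1.71 ± 0.16, or 3.27-fold (adjusted p = 2.37e-05). The change of -0.38 ± 0.16 at 8 h against no hCG was not called (adjusted p = 0.0937). For the second probe set that change was -0.59 ± 0.19 and was called (adjusted p = 0.0369). The other 2 probe sets changed by -1.28 ± 0.19 (adjusted p = 0.00128) and -1.63 ± 0.39 (adjusted p = 0.017) at 16 h against 8 h.

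Stat3, the transcription factor of the pathway, rose on its 2 brightest probe sets of 4. The brightest, 1460700_at, read 10.21 and 9.91 without hCG, 10.78 and 10.84 at 8 h and 11.23 and 11.23 at 16 h, and the groups did not overlap. Stat3 rose by 0.75 ± 0.16 at 8 h against no hCG, or 1.68-fold (adjusted p = 0.00538), and by 1.17 ± 0.16 at 16 h against no hCG, or 2.25-fold (adjusted p = 0.000328). The step of 0.42 ± 0.16 at 16 h against 8 h was not called (adjusted p = 0.108, 95% interval 0.06 to 0.78). The second probe set, 1426587_a_at, differed by 0.57 ± 0.20 at 8 h against no hCG, which was not called (adjusted p = 0.0542), and rose by 0.94 ± 0.20 at 16 h against no hCG (adjusted p = 0.00504). The other 2 probe sets were not called in any comparison. Of these, 1459961_a_at went the other way at 16 h against no hCG, with -0.43 ± 0.18 (adjusted p = 0.0843, 95% interval -0.83 to -0.04). The mean of the 4 changed by 0.32 at 8 h against no hCG (adjusted p = 0.101), which ended the call. The array measures the Stat3 transcript and not the phosphorylated protein.

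Socs3, the feedback inhibitor, was highest without hCG and fell on all 3 of its probe sets. The brightest, 1455899_x_at, read 11.55 and 11.45 without hCG, 10.39 and 10.26 at 8 h and 10.37 and 10.29 at 16 h. Both groups after hCG were below both arrays without hCG and overlapped each other. Socs3 fell by 1.17 ± 0.15 on the log2 scale at 8 h against no hCG, or 2.25-fold (adjusted p = 0.000249), and by 1.17 ± 0.15 at 16 h against no hCG (adjusted p = 0.000223). The change was 0.00 ± 0.15 at 16 h against 8 h (adjusted p = 0.995, 95% interval -0.34 to 0.34). The other 2 probe sets changed by -0.84 ± 0.16 (adjusted p = 0.00255) and -0.95 ± 0.18 (adjusted p = 0.00272) at 8 h against no hCG. The suffix of 2 of the 3 probe sets (_x_at) marks probes that may also bind other transcripts, and the last-named, 1416576_at, has no such suffix. At 8 h the arrays with the highest Il6 and Lif had lower Socs3 than the arrays without hCG, and a link between these levels was not tested.

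**Figure D2:**
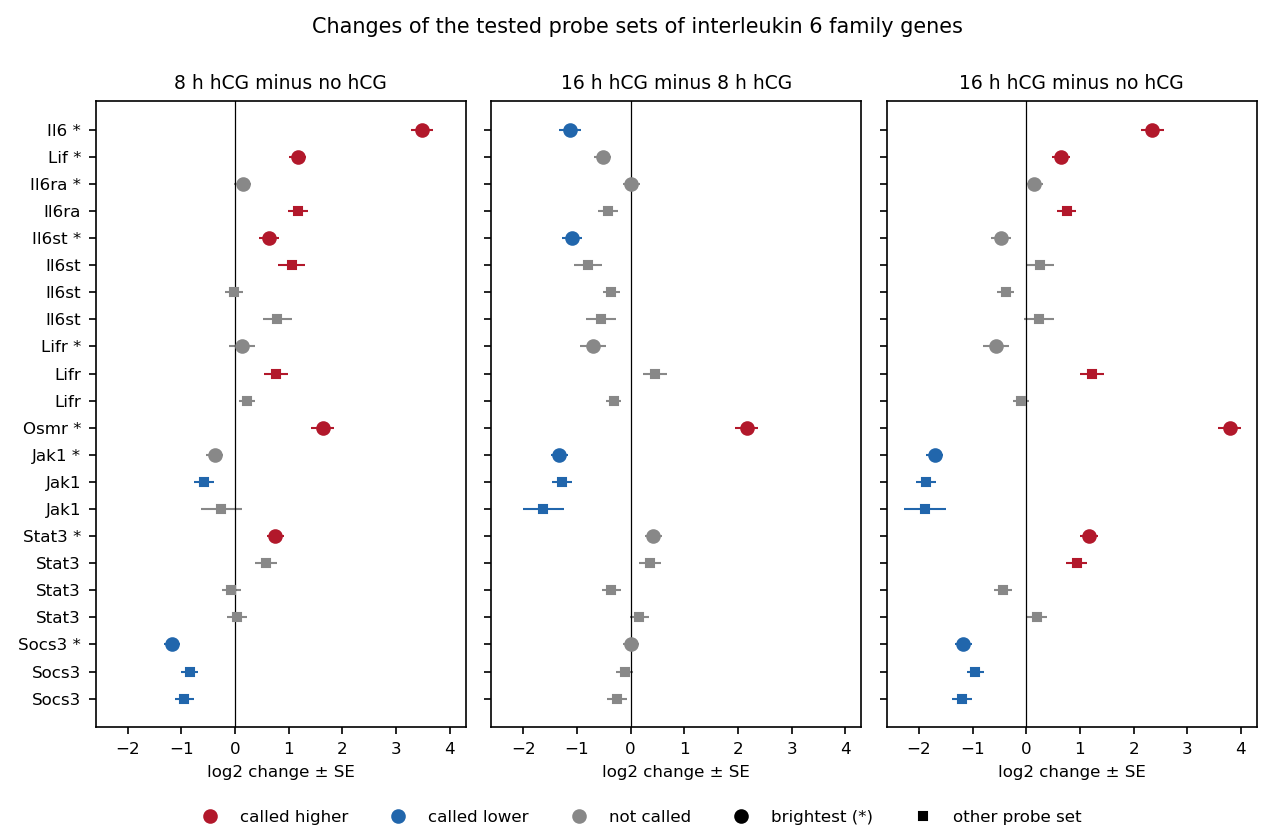
Log2 change ± SE of the limma fit (horizontal axis) of the 22 tested probe sets of the 9 genes, with 1 panel per comparison, circles and an asterisk for the brightest probe set of a gene, squares for its other probe sets, red for called higher, blue for called lower and grey for not called. Osmr lies above 0 in every panel (1.63, 2.16 and 3.79), Il6 lies at 3.48 in the first panel and at -1.12 in the second, and the brightest Il6ra probe set lies at 0.14, 0.01 and 0.15.

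Genes of the same pathway outside the 9 were taken from 6 lists with 64 genes, of which 59 had a probe set and 55 were tested. Of these 55, 15 rose and 8 fell at 8 h against no hCG, 22 rose and 5 fell at 16 h against 8 h, and 27 rose and 7 fell at 16 h against no hCG. Their median changes were 0.05, 0.35 and 0.47 in that order. The shares of all tested genes given above are the background to these counts.

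Among the other ligands, 3 were tested, and Il11 and Ebi3 were too dim. Clcf1, a ligand of the ciliary neurotrophic factor receptor, read 5.81 and 5.30 without hCG (the latter under the dim limit), 7.82 and 7.64 at 8 h and 8.76 and 8.49 at 16 h. It rose by 2.18 ± 0.20 at 8 h against no hCG (adjusted p = 2.95e-05) and by 0.89 ± 0.20 at 16 h against 8 h (adjusted p = 0.0126). The later step was lost without 8 h replicate 2 (adjusted p = 0.0937) and without 16 h replicate 1 (adjusted p = 0.119). Ctf1, which encodes cardiotrophin 1, rose by 0.72 ± 0.18 at 16 h against 8 h (adjusted p = 0.0201), a call lost without 8 h replicate 1 (adjusted p = 0.151), without 8 h replicate 2 (adjusted p = 0.0731) and without 16 h replicate 1 (adjusted p = 0.148). Osm, which encodes the ligand of Osmr, read between 7.01 and 7.35 on all 6 arrays and was not called in any comparison, with a change of 0.17 ± 0.17 at 16 h against no hCG (adjusted p = 0.470).

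Of 3 other receptor chains, Il31ra, which pairs with Osmr in a cytokine receptor complex, fell by 0.84 ± 0.18 on the log2 scale at 8 h against no hCG (adjusted p = 0.00467), and the call was lost without 8 h replicate 2 (adjusted p = 0.0635). Cntfr and Il27ra were not called in any comparison. Of the 2 proteases that shed receptors, Adam17 rose by 0.71 ± 0.15 at 16 h against 8 h (adjusted p = 0.0110). That call was lost without 8 h replicate 1 (adjusted p = 0.130), 16 h replicate 1 (adjusted p = 0.0634) or 16 h replicate 2 (adjusted p = 0.0731). Adam10 was not called in any comparison.

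The other kinases and STAT factors numbered 8 tested genes. At 8 h against no hCG 1 rose and 2 fell, at 16 h against 8 h 4 rose and 0 fell, and at 16 h against no hCG 4 rose and 1 fell. Beside these counts, 16.9%, 11.8% and 20.8% of all tested genes were higher and 20.5%, 9.12% and 20.8% lower, in that order. Stat4 read 7.26 and 7.22 without hCG, 5.14 and 4.97 at 8 h and 5.01 and 4.89 at 16 h, and fell by 2.18 ± 0.15 on the log2 scale at 8 h against no hCG (adjusted p = 5.87e-06). Its arrays after hCG lay under the dim limit. Stat5a read 9.80 and 10.19 without hCG, 9.15 and 9.22 at 8 h and 10.71 and 10.85 at 16 h, and was lowest at 8 h. It fell by 0.81 ± 0.17 at 8 h against no hCG (adjusted p = 0.00530), a call lost with the mean of its probe sets (adjusted p = 0.101), and rose by 1.59 ± 0.17 at 16 h against 8 h (adjusted p = 0.00023). Stat6 rose by 0.84 ± 0.15 (adjusted p = 0.00363) and Stat5b by 1.02 ± 0.19 (adjusted p = 0.00541) at 16 h against 8 h. The Stat5b call was lost without 8 h replicate 1 (adjusted p = 0.0601) and without 16 h replicate 2 (adjusted p = 0.0635).

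Tyk2, a JAK family kinase, rose while Jak1 did not. It read 8.00 and 7.94 without hCG, 8.48 and 8.39 at 8 h and 9.18 and 9.27 at 16 h. The step of 0.46 ± 0.15 at 8 h against no hCG (adjusted p = 0.0368) was not called in a fit without the 16 h group (adjusted p = 0.0527). The call was also lost when any 1 of the compared arrays was left out, with changes between 0.42 and 0.51. At 16 h against 8 h the step was 0.79 ± 0.15 (adjusted p = 0.00506), lost without 8 h replicate 2 (adjusted p = 0.0566) and when its probe sets were averaged (0.31, adjusted p = 0.169). Jak2 and Jak3 were not called in any comparison.

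The 15 inhibitors held 3 higher and 1 lower at 8 h against no hCG, 1 higher and 1 lower at 16 h against 8 h, and 3 higher and 3 lower at 16 h against no hCG. Among all tested genes, 16.9% were higher and 20.5% lower, then 11.8% and 9.12%, then 20.8% and 20.8%, in the same order. Cish, a relative of Socs3, read 7.99 and 8.03 without hCG, 9.20 and 9.32 at 8 h and 9.29 and 9.39 at 16 h, and rose by 1.25 ± 0.15 at 8 h against no hCG (adjusted p = 0.000155). Socs5 rose by 1.35 ± 0.15 in the same comparison (adjusted p = 0.000107). Socs4 rose by 0.98 ± 0.26 (adjusted p = 0.0163), a call lost without no hCG replicate 1 (0.54, adjusted p = 0.0635) and without 8 h replicate 2 (adjusted p = 0.113). Socs7 fell by 0.74 ± 0.17 on the log2 scale (adjusted p = 0.00836), lost without 8 h replicate 1 (adjusted p = 0.0982). Socs2 read 12.35 and 12.50 without hCG, 12.75 and 12.83 at 8 h and 11.41 and 10.96 at 16 h, so that both 16 h arrays were below the other 4. It fell by 1.61 ± 0.18 on the log2 scale at 16 h against 8 h (adjusted p = 0.000278). At 16 h against no hCG, Socs2, Socs7 and Ptpn2 of this list were lower and Cish, Socs4 and Socs5 higher. The Ptpn2 change was -0.47 ± 0.15 (adjusted p = 0.0382). Socs3, a member outside the list, was also lower, while Socs1 and Socs6 were not called. The counts of the inhibitor list in that comparison were near the shares of all tested genes. The Socs4 call at 16 h against no hCG was lost when its probe sets were averaged (0.40, adjusted p = 0.0755).

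Genes known as STAT3 targets in other cells, 26 listed and 24 tested, held 10 higher and 4 lower at 8 h against no hCG, 14 higher and 4 lower at 16 h against 8 h, and 17 higher and 3 lower at 16 h against no hCG. The shares of all tested genes were 16.9% higher and 20.5% lower, then 11.8% and 9.12%, then 20.8% and 20.8%, in the same order. The median change of the targets was 0.35 at 8 h against no hCG, 0.87 at 16 h against 8 h and 0.81 at 16 h against no hCG. Many of these genes have other known regulators, and several are also known as genes of ovulation or of leukocytes. With 1 array left out, the higher genes numbered between 8 and 11 at 8 h against no hCG, between 11 and 14 at 16 h against 8 h and between 14 and 17 at 16 h against no hCG. Without suffixed probe sets (_a, _s and _x) the higher genes numbered 9 at 16 h against 8 h and 11 at 16 h against no hCG. The lower genes at 8 h against no hCG numbered 2 with median centring and 1 without 8 h replicate 2, and 2 without no hCG replicate 1 or 8 h replicate 1. At 16 h against 8 h, 2 were lower without any 1 of the 4 arrays compared, and at 16 h against no hCG 1 was lower without 16 h replicate 2.

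The targets followed several time courses. Bcl3, a regulator of NF-kB, read 5.55 and 5.38 without hCG (both under the dim limit), 8.12 and 8.04 at 8 h and 8.81 and 8.21 at 16 h. It rose by 2.61 ± 0.20 at 8 h against no hCG (adjusted p = 1.17e-05). Cebpb, a transcription factor needed for ovulation in mice, rose by 1.93 ± 0.16 (adjusted p = 1.72e-05) and Timp1, an inhibitor of matrix proteases, by 3.82 ± 0.15 (adjusted p = 3.58e-07) in that comparison. Bcl6, a transcriptional repressor, rose by 1.84 ± 0.25 at 8 h against no hCG (adjusted p = 0.000325) and by 1.57 ± 0.25 at 16 h against 8 h (adjusted p = 0.0019), so that it rose in both steps. Saa3, serum amyloid A3, read 7.63 and 8.13 without hCG, 7.61 and 7.74 at 8 h and 12.03 and 11.74 at 16 h, and rose by 4.21 ± 0.20 at 16 h against 8 h (adjusted p = 3.82e-06). A2m, a protease inhibitor of plasma, rose by 1.90 ± 0.15 (adjusted p = 3.5e-05) and Hp, which encodes haptoglobin, by 1.80 ± 0.17 (adjusted p = 0.000118) at 16 h against 8 h. Hp had already risen by 1.28 ± 0.17 at 8 h against no hCG (adjusted p = 0.000348), where A2m and Saa3 were not called. Other targets fell. Pim3 and Pim1 did so at 8 h against no hCG, with changes of -1.15 ± 0.16 (adjusted p = 0.000332) and -0.88 ± 0.19 (adjusted p = 0.00529), and rose after 8 h. At 16 h against 8 h the changes were -1.34 ± 0.24 for Cebpd (adjusted p = 0.00376), -1.01 ± 0.19 for Fos (adjusted p = 0.00553) and -0.67 ± 0.16 for Bcl2l1 (adjusted p = 0.0164).

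**Figure D3:**
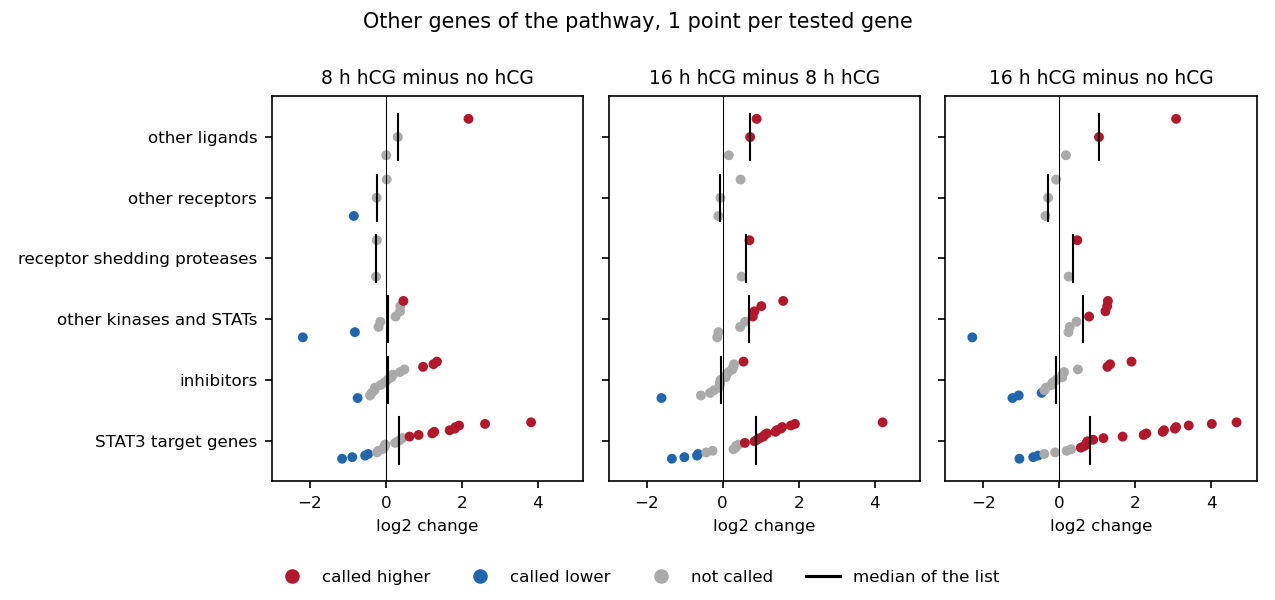
Log2 change of every tested gene of the 6 pathway lists in the 3 comparisons, with 1 point per gene, red for called higher, blue for called lower and grey for not called, and a vertical bar at the median of each list. The median of the 24 STAT3 target genes lies at 0.35 at 8 h against no hCG, 0.87 at 16 h against 8 h and 0.81 at 16 h against no hCG, and the 15 inhibitors have medians near 0.

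The genes whose pattern was most like that of a member were found as those with the smallest root mean square distance over the 6 arrays, after each gene was centred on its own mean, among tested genes whose brightest group mean reached 8.5. For Il6 they were Adh7 (distance 0.219), Frmd5 (0.220) and Pde4d (0.231), and for Lif they were Selenok (0.0708), C2cd2l (0.0864) and Nsg1 (0.0865). Osmr was nearest to Gas1 (0.140), Lgmn (0.182) and Bmf (0.190), and Il6st to Rhob (0.131), Sik3 (0.136) and Appbp2 (0.140). Jak1 was nearest to Psd3 (0.0779), E2f8 (0.113) and Spdl1 (0.123), Stat3 to Agpat4 (0.0700), Flna (0.0716) and Syngr2 (0.0844), and Socs3 to Riok1 (0.0532), Nme4 (0.0574) and Susd1 (0.0606). The distances are on the log2 scale and describe these 6 arrays.

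Markers of the cells that a complex or its collection can hold differed between the same groups. The summed linear intensity of 12 cumulus and granulosa markers lay between 75822 and 77139 without hCG, between 50771 and 63254 at 8 h and between 42524 and 47138 at 16 h. These markers moved in both directions. At 8 h against no hCG, 3 rose (Ptx3, Tnfaip6 and Has2), 5 fell and 4 were not called. At 16 h against no hCG, 3 rose, 7 fell and 2 were not called. The sum of 11 oocyte markers lay between 44091 and 53095 without hCG, between 10110 and 11225 at 8 h and between 13886 and 16521 at 16 h, and 11 of 11 fell at 8 h against no hCG. Fewer cells of a type and less RNA per cell cannot be told apart in pooled complexes. The sum of 20 leukocyte markers lay between 4614 and 4826 without hCG, between 4212 and 4393 at 8 h and between 11015 and 11311 at 16 h. Of 18 leukocyte markers tested, 2 rose and 0 fell at 8 h against no hCG, and 16 rose and 0 fell at 16 h against 8 h, with a median change of 1.92. The count of 16 was 8 when the dim limit was set at the 60th percentile and 10 without suffixed probe sets. The 2 that rose at 8 h were the Fc receptor gene Fcgr3, by 1.59 ± 0.26 (adjusted p = 0.001), and Csf1r, the receptor of a macrophage growth factor, by 1.36 ± 0.19 (adjusted p = 0.000448). The part of leukocytes in the 8 h and 16 h values of the 9 genes and of Saa3, A2m and Hp was not tested.

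Markers of other tissues differed between groups too. The 8 oviduct epithelium markers summed to between 1878 and 2026 without hCG, between 1246 and 1325 at 8 h and between 5002 and 6368 at 16 h. Of 5 tested, Ovgp1 and Krt18 rose at 16 h against 8 h and 3 were not called. Tppp3 fell by 1.01 ± 0.18 on the log2 scale at 8 h against no hCG (adjusted p = 0.00208) and was also lower at 16 h against no hCG, with a change of -0.88 ± 0.18 (adjusted p = 0.00397). Pax8, Foxj1 and Sox17 were too dim to test. The 8 theca and stroma markers summed to between 3207 and 3536 without hCG, between 1498 and 2106 at 8 h and between 903 and 975 at 16 h, and 6 of 7 tested fell at 16 h against no hCG. The 9 endothelium markers summed to between 502 and 536 without hCG, between 713 and 851 at 8 h and between 786 and 827 at 16 h, so both hCG times were above no hCG. Of 4 tested, Cdh5, which encodes VE-cadherin, rose by 2.86 ± 0.25 at 8 h against no hCG (adjusted p = 2.16e-05) and by 2.96 ± 0.25 at 16 h against no hCG (adjusted p = 1.34e-05), and Kdr rose by 0.49 ± 0.15 at 16 h against no hCG (adjusted p = 0.0244). The Kdr call was lost in a fit without the 8 h group (adjusted p = 0.0556). It was also lost without no hCG replicate 1 (change 0.48), 16 h replicate 1 (0.51) or 16 h replicate 2 (0.47). The Kdr call was kept without no hCG replicate 2. Pecam1, Tek, Tie1, Emcn and Vwf averaged too dim to test. The 6 surface epithelium markers lay between 315 and 460 and the 3 erythrocyte markers between 286 and 485 on all arrays. The part of these cell types in the members' changes was not tested.

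**Figure D4:**
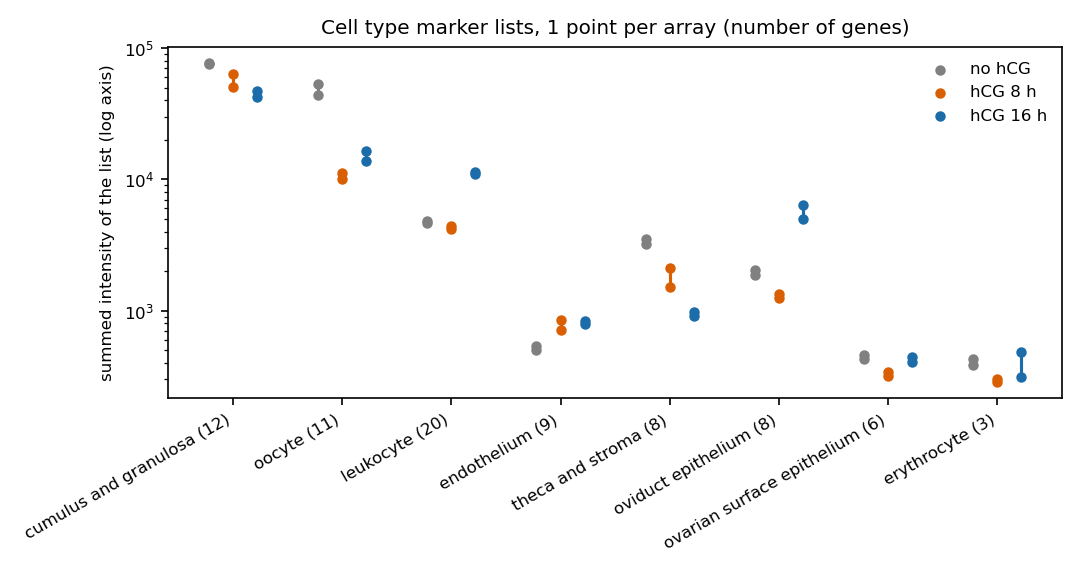
Summed linear intensity (log axis) of 8 lists of cell type markers in complexes without hCG, 8 h after hCG and 16 h after hCG, with 1 point per array, a line between the 2 arrays of a group, and the number of genes in brackets. The leukocyte sum lies between 11015 and 11311 at 16 h and between 4212 and 4826 on the other 4 arrays, and the oocyte sum is highest without hCG.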

How the data were processed

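Biotin-labelled cRNA from total RNA of 6 pools of cumulus-oocyte complexes was prepared, per the labels' protocols, and hybridised to Affymetrix arrays with 1 label. The authors deposited 1 log2 intensity per probe set and array. That these are log2 values was judged from their range. How the authors corrected, normalized and summarised them is not given in the sources used here. Values ran from 3.32 to 15.5. Detection calls were not used here, so signal over background is unknown, changes that involve low values may be understated, and the number of arrays limits the precision.

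Each array was placed in its group by its title. Of 45101 probe sets, 64 controls were left out, and the platform annotation gave 34945 of the rest 1 symbol, 932 several and 9160 none. Probe sets averaging under 5.62, the 40th percentile of such averages, were not tested. Group means of all 6 arrays were fitted in R 4.3.3 by lmFit and eBayes of limma 3.58.1 (3 residual and 6.43 prior degrees of freedom), with two-sided tests, Benjamini-Hochberg adjustment over 27022 probe sets and an adjusted p of 0.05 as the limit for a call. This limma fit gave the p-values, except that a p printed for an alternative comes from the same fit under that alternative. The fit was also run on simulated data in which far fewer probe sets changed than were called here. That run does not show how the p-values behave in these data. A gene was represented by its probe set with the highest mean.

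The 9 genes and all lists were chosen with earlier results of these data known. The genes named were the 9 members, up to 4 genes per list with the largest change among those called in a comparison, and the 3 genes nearest in pattern to each called member. Genes named beside them, such as Osm, were added after their values were seen. Alternatives were quantile normalization, median centring, other dim filters, the compared groups alone, the mean of a gene's probe sets, probe sets without a suffix letter, an intensity trend, a replicate block and leaving out each array. Setting values under the dim limit to it, and the list counts under every alternative, were added after seeing the data. Promoter sequences came from RefSeq (GRCm38.p6). The labels describe the complexes without hCG as expanded, and an oviduct origin at 8 h is early for ovulation; both are given as labelled.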

Additional observations from a re-analysis of the deposited data

How the results depend on the processing

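With 2 arrays per group, signal over background unknown and dim values without hCG, the sizes of the Il6 and Osmr changes are uncertain. The 9 genes gave 27 changes under 16 alternatives, and of 423 values 385 kept direction and call, 5 lost the call, 21 gained it and 12 changed sign without a call. Of 1587 values of other named genes, 1519 kept direction and call and 68 lost the call. In each comparison, leaving out an array of the group not compared gave the same fit as the compared groups alone. These tallies therefore count some fits repeatedly. A dim filter set to the 60th percentile left 3 of the family genes called at 8 h against no hCG, 2 at 16 h against 8 h and 3 at 16 h against no hCG, since Il6, Lif and Osmr were then not tested. With 1 array left out, 6109 to 9450 probe sets were called at 8 h against no hCG and 2518 to 6340 at 16 h against 8 h.

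Sign changes concerned uncalled values. Lifr at 8 h against no hCG ranged from -0.23 to 0.49 with 1 array left out, and at 16 h against no hCG was 0.19 with the mean of its probe sets. At 16 h against 8 h, Socs3 was -0.0363 with quantile normalization, -0.12 with the mean of its probe sets, -0.25 without suffixed probe sets and -0.0645 to 0.0696 with 1 array left out. Il6ra was -0.21 with the mean of its probe sets, -0.42 without suffixed probe sets and -0.053 to 0.0727 with 1 array left out. The cause was not tested.

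Same-numbered arrays deviated together with r of 0.47 (8 h and no hCG), 0.13 (16 h and 8 h) and 0.001 (16 h and no hCG), so the numbers were not taken as pairs. With the replicate number as a block, 10117, 5812 and 11045 probe sets and 6, 6 and 8 family genes were called for 8 h against no hCG, for 16 h against 8 h, and for 16 h against no hCG. Without the block, 6, 4 and 6 family genes were called. The block added Lif (adjusted p = 0.0471) and Lifr (adjusted p = 0.0276) at 16 h against 8 h, and Il6st (adjusted p = 0.0414) and Lifr (adjusted p = 0.0360) at 16 h against no hCG.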
